A study of Mus musculus with 18 samples.

Results

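The loci of 9 transcription factors of the B lineage, *Ebf1*, *Pax5*, *Tcf3*, *Foxo1*, *Ikzf1*, *Ikzf3*, *Bach2*, *Pou2af1* and *Lef1*, were followed by ChIP-seq with antibodies to 3 factors, PU.1, C/EBPα and C/EBPβ, while pre-B cells turned into macrophage-like cells. They were 9 of 22225 protein-coding genes annotated on mouse chromosomes 1 to 19, X and Y (mm9, GENCODE vM1). They were chosen by name for their role in B cells, with earlier results of these data known, and no binding value entered the choice rule. A locus was the span of the gene with 20 kb on either side, and the 9 loci covered 1693.62 kb. C10 cells, a pre-B line derived from the HAFTL line, carry a C/EBPα-estrogen receptor fusion (C/EBPαER) with a GFP tag, which 17 beta-estradiol (β-Est) moves into the nucleus. All groups were this single line with this transgene, grown with IL-3 and CSF-1. The time points were 0 hpi (hours post-induction, ethanol in place of β-Est), 10, 30 and 60 min, and 3, 12, 24 and 48 hpi. C/EBPα was profiled at all of these (8 libraries), C/EBPβ at 0, 3, 12, 24 and 48 hpi (5 libraries), and PU.1 at the same times as C/EBPβ (5 libraries).

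B cell identity rests on a network of factors that sustain each other's genes. E2A, the product of *Tcf3*, and Foxo1 act early and favor *Ebf1*, Ebf1 and Pax5 specify the lineage and commit cells to it, and Ikaros, Aiolos, Bach2, OBF-1 and Lef1 act beside them or downstream. PU.1, an ETS factor, is present in B cells at a lower level than in macrophages, whereas the bZIP factors C/EBPα and C/EBPβ drive myeloid genes.

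No time point of a factor was replicated, so values of libraries are compared without a test and no p-value is given. The PU.1 reads of 0 hpi carry the word merged in the file name given to the peak caller, so this library may pool more than 1 preparation, and every ratio of PU.1 to 0 hpi rests on it. The intervals are 95% intervals that cover counting error only. A site was a group of 200-bp bins that held more reads than the genome mean and the surrounding 10 kb predict in at least 1 library of a factor. Its level was the number of reads within 200 bp of its centre per 10000000 reads of the library, written below as normalized reads. Libraries held between 2901164 reads (C/EBPβ, 12 hpi) and 24909437 reads (C/EBPα, 10 min), and between 0.296% and 20.6% of reads lay in enriched bins. The C/EBPα libraries of 10, 30 and 60 min were read on another sequencer, with longer reads (50 bp), so that time and sequencer cannot be told apart for them. Positions of sites are given in kb from the start of the gene, positive inside and beyond the gene.

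The sequences shown first are those of 9 sites on which the account turns. Each is 200 bp around the centre on the strand of the gene, from the mm9 genome, with letters in capitals where a searched motif lies. The motifs, searched on both strands, were C/EBP (TTGCNNAA), PU.1 (GAGGAA, which reads TTCCTC on the other strand), EBF1 (TCCCNNGGG), RUNX (TGTGGT, which reads ACCACA on the other strand) and the E-box CAGCTG. The first pair of sites was bound by C/EBPα early and not late. They lie in an intron of *Bach2* at chr4:32521601-32521800 and in an intron of *Foxo1* at chr3:52135801-52136000.
Bach2 +195.9 kb: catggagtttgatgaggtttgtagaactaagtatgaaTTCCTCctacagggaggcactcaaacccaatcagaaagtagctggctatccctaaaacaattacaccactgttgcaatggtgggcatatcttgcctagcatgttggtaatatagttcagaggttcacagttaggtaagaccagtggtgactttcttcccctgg
Foxo1 +63.6 kb: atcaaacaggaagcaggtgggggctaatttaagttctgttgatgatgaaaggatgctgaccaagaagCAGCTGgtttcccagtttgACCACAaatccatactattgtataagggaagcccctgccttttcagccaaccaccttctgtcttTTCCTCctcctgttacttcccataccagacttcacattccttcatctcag

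At 3 other sites C/EBPα was present late. The first lies in an intron of *Ikzf1* at chr11:11630201-11630400, the second beyond the 3′ end of *Ikzf1* at chr11:11685601-11685800, and the third in an intron of *Bach2* at chr4:32657001-32657200. The second has a pair of EBF1 matches, on opposite strands, that overlap with a shift of 1 base, and the third has a pair of C/EBP matches.
Ikzf1 +45.3 kb: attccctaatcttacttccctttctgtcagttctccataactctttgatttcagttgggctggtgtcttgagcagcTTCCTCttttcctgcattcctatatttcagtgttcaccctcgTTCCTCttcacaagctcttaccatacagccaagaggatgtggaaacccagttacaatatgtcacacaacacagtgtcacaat
Ikzf1 +100.7 kb: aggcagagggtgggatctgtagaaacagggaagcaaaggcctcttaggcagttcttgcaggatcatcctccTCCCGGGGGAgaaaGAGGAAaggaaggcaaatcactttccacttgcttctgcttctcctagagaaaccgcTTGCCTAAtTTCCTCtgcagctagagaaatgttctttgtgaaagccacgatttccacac
Bach2 +331.3 kb: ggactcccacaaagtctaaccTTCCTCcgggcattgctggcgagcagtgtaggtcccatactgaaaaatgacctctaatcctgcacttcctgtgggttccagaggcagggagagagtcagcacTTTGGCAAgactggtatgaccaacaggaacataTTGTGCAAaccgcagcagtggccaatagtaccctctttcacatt

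The last 4 are sites where PU.1 was lower at 48 hpi than at 0 hpi. They lie in an intron of *Ebf1* at chr11:44764001-44764200, in an intron of *Pax5* at chr4:44684001-44684200, in an intron of *Foxo1* at chr3:52144601-52144800, and upstream of *Tcf3* at chr10:79905801-79906000.
Ebf1 +333.3 kb: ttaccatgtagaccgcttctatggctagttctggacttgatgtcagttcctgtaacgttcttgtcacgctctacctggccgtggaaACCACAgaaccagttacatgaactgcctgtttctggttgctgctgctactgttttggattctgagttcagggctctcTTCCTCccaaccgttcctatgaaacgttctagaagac
Pax5 +40.2 kb: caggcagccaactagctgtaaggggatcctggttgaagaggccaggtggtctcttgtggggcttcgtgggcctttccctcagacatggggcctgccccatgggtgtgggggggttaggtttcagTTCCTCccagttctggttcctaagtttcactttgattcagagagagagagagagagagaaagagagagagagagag
Foxo1 +72.4 kb: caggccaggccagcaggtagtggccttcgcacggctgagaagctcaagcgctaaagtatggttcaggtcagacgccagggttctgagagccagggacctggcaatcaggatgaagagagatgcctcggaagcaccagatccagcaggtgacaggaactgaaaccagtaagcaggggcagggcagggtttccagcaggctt
Tcf3 −9.5 kb: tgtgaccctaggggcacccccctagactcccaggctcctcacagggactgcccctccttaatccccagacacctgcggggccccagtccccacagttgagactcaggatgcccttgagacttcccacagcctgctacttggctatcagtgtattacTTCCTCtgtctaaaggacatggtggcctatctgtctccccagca

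All 9 loci held sites of all 3 factors. There were 101 C/EBPα sites, 36 C/EBPβ sites and 143 PU.1 sites, of 33566, 15303 and 66052 in the genome. The loci were dense in sites, with 5.96 C/EBPα sites per 100 kb, 2.13 C/EBPβ sites and 8.44 PU.1 sites when pooled. The median over all protein-coding loci, taken singly, was 1.61, 0 and 4.12. These measures are not alike, and 59.0% of all loci had no C/EBPβ site. C/EBPα density was not particular to the 9 loci, where it lay between percentile 66.3 (*Pax5*) and 97.1 (*Ikzf1*). Among 10 other B-lineage regulators, named below, it lay between 80.8 (*Bcl6*) and 97.7 (*Mef2c*), except in *Sox4*, which had no C/EBPα site. *Ebf1* and *Bach2*, which are long genes, held 29 and 28 C/EBPα sites and 39 and 31 PU.1 sites. Per kb, *Ikzf1* was the densest for C/EBPα and PU.1 and, after *Pou2af1*, the second for C/EBPβ, with 13 C/EBPα, 7 C/EBPβ and 21 PU.1 sites in 127.92 kb, which placed it at percentile 97.1, 96.3 and 97.3 of all loci. *Tcf3*, the shortest locus, held 2 C/EBPα, 1 C/EBPβ and 4 PU.1 sites in 64.134 kb. Introns of the 9 genes made up 75.3% of the bases of the loci and held 75 of 101 C/EBPα sites (74.3%), 26 of 36 C/EBPβ sites (72.2%) and 93 of 143 PU.1 sites (65.0%).

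**Figure D1:**
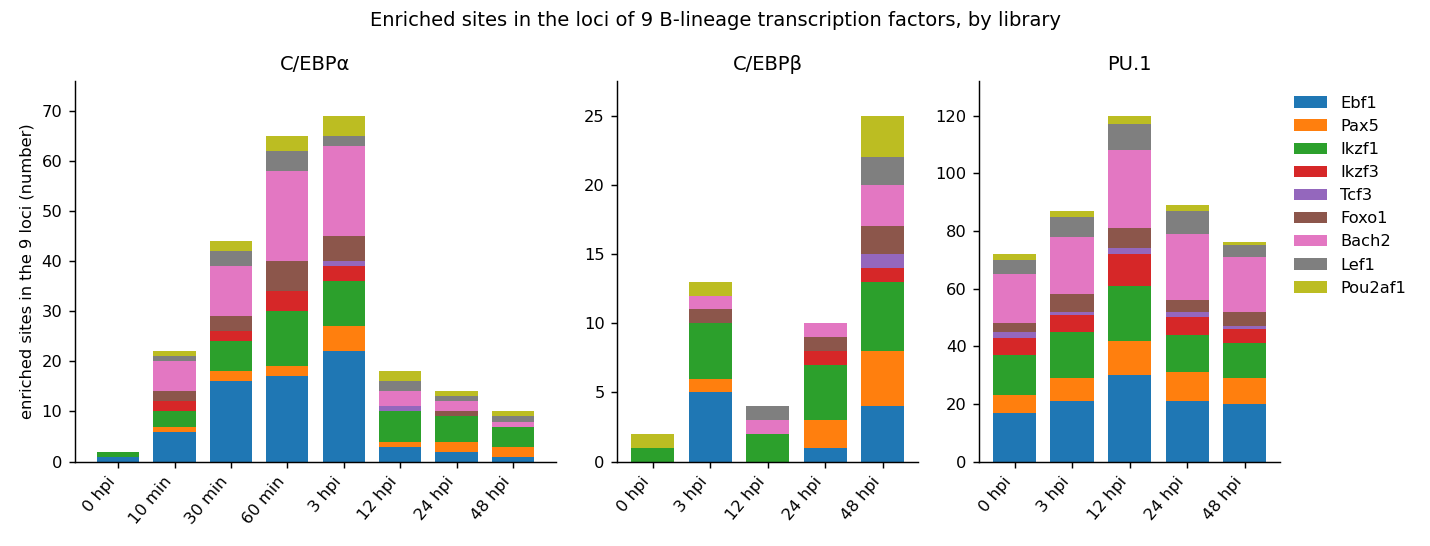
Number of enriched sites in the 9 loci (vertical axis) in each library (horizontal axis), in a panel per factor, with a color per locus stacked in each bar. The C/EBPα bars grow from 2 sites at 0 hpi to 69 at 3 hpi and shrink to 10 at 48 hpi, with *Ebf1* and *Bach2* making up most of the tall bars, while the PU.1 bars lie between 72 and 120.

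C/EBPα rose at these loci within the first hours, and few of its sites were enriched at 48 hpi. Over all 101 sites the mean of normalized C/EBPα reads was 5.53 at 0 hpi, 21.8 at 3 hpi and 8.17 at 48 hpi. The limit of a call depends on depth. A bin needed at least 14 of 24909437 reads at 10 min and 9 of 7954398 reads at 48 hpi. Weaker sites could thus be called in the deeper libraries. In libraries made from bulk cells, binding in fewer cells and weaker binding per cell cannot be told apart. Of the 101 sites, 2 were enriched at 0 hpi, 22 at 10 min, 44 at 30 min, 65 at 60 min, 69 at 3 hpi, 18 at 12 hpi, 14 at 24 hpi and 10 at 48 hpi. As shares these were 1.98%, 21.8%, 43.6%, 64.4%, 68.3%, 17.8%, 13.9% and 9.90%, against 7.40%, 23.7%, 43.0%, 60.0%, 57.9%, 32.6%, 25.9% and 23.0% of all C/EBPα sites. The shares were thus lower than those of the genome at 0 hpi, close to them from 10 to 60 min, higher at 3 hpi and lower from 12 hpi on. The highest of the 8 libraries was 3 hpi for 45 sites, which is 44.6% against 30.2% in the genome. It was 60 min for 21 sites, 30 min for 16, 12 hpi for 11, 24 hpi for 3, 48 hpi for 3, 0 hpi for 2 and 10 min for 0.

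A site was called gained between 2 time points when it was enriched at the later and not at the earlier, at least 2-fold higher, and the interval of the ratio lay above 1, and lost by the same rule reversed. Between 0 and 3 hpi C/EBPα gained 55 of the 101 sites (54.5%, interval 44.2 to 64.4%), where 42.7% of all C/EBPα sites were gained. They were 20 in *Ebf1*, 14 in *Bach2*, 9 in *Ikzf1*, 4 in *Pax5*, 4 in *Foxo1*, 3 in *Pou2af1* and 1 in *Ikzf3*, with 0 in *Tcf3* and *Lef1*. The sole site lost in that time was *Ikzf1* +89.9 kb, beside 0.393% lost in the genome. Between 3 and 48 hpi C/EBPα lost 46 sites (45.5%, interval 35.6 to 55.8%), where 29.0% were lost in the genome, and gained 2, beside 3.82%. Losses fell in every locus but *Lef1*, with 19 in *Ebf1*, 12 in *Bach2*, 5 in *Foxo1*, 3 in *Ikzf1*, 3 in *Pou2af1*, 2 in *Pax5* and 1 each in *Ikzf3* and *Tcf3*. Over the whole course, from 0 to 48 hpi, 8 sites were gained (7.92%, beside 15.3% of all sites) and 1 was lost (0.990%, beside 1.02%). Of the 8 sites gained, 4 were in *Ikzf1* and 1 each in *Ebf1*, *Pax5*, *Bach2* and *Pou2af1*. These calls rest on the libraries of 0, 3 and 48 hpi, which came from the same type of sequencer. With all C/EBPα libraries thinned to the smallest of them, 36 of 68 sites were gained between 0 and 3 hpi (52.9%, against 44.0% in the genome) and 31 lost between 3 and 48 hpi (45.6%, against 29.3%). At the 10 other B-lineage regulators *Bcl11a*, *Ets1*, *Pou2f2*, *Tcf12*, *Foxp1*, *Bcl6*, *Mef2c*, *Erg*, *Sox4* and *Id3*, which were a list for comparison, C/EBPα gained 53 of 104 sites by 3 hpi (51.0%), lost 36 by 48 hpi (34.6%) and gained 16 from 0 to 48 hpi (15.4%). Without the demand on enrichment, 58.4% of the sites in the 9 loci were at least 2-fold higher at 3 than at 0 hpi, against 62.5% at the other regulators and 50.4% in the genome. In the same way 48.5% were at least 2-fold lower at 48 than at 3 hpi, against 49.0% and 36.6%, so that the gap in losses to the other regulators was not seen by this count.

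The C/EBPα levels, on which these calls rest, are given as a description, beside C/EBPβ and PU.1, which the calls did not use. Over the 46 sites lost after 3 hpi the mean of normalized C/EBPα reads was 5.61 at 0 hpi, 6.17 at 10 min, 17.9 at 30 min, 22.1 at 60 min, 29.4 at 3 hpi, 10.5 at 12 hpi, 5.91 at 24 hpi and 3.80 at 48 hpi. C/EBPβ at the same places was 5.43 at 0 hpi, 14.9 at 3 hpi, 6.52 at 12 hpi, 9.05 at 24 hpi and 8.87 at 48 hpi. C/EBPβ was thus highest at 3 hpi as well. Over the 8 sites gained from 0 to 48 hpi the C/EBPα mean was 5.92, 7.23, 21.0, 25.5, 44.4, 74.8, 57.0 and 43.8 in the same order, with its peak at 12 hpi. C/EBPβ at these 8 sites had means of 9.34, 18.4, 20.3, 42.8 and 58.4, and PU.1 stood at 34.4, 52.7, 54.4, 44.4 and 59.4. The peak was carried by *Ikzf1* +100.7 kb and +45.3 kb, which were singled out after their values were seen. Without them the C/EBPα mean of the other 6 sites was 28.0, 34.3, 28.8 and 33.3 at 3, 12, 24 and 48 hpi, and that of C/EBPβ 13.7, 11.5, 19.7 and 43.7. PU.1 at the 46 lost sites was lower throughout, with means of 16.2, 20.8, 14.5, 10.1 and 12.3. The PU.1 medians were lower than the means, at 4.25, 6.08, 4.67, 3.96 and 4.78 over the 46 sites and 18.4, 19.8, 21.9, 20.3 and 21.0 over the 8, so that a few strong sites carried the means.

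**Figure D2:**
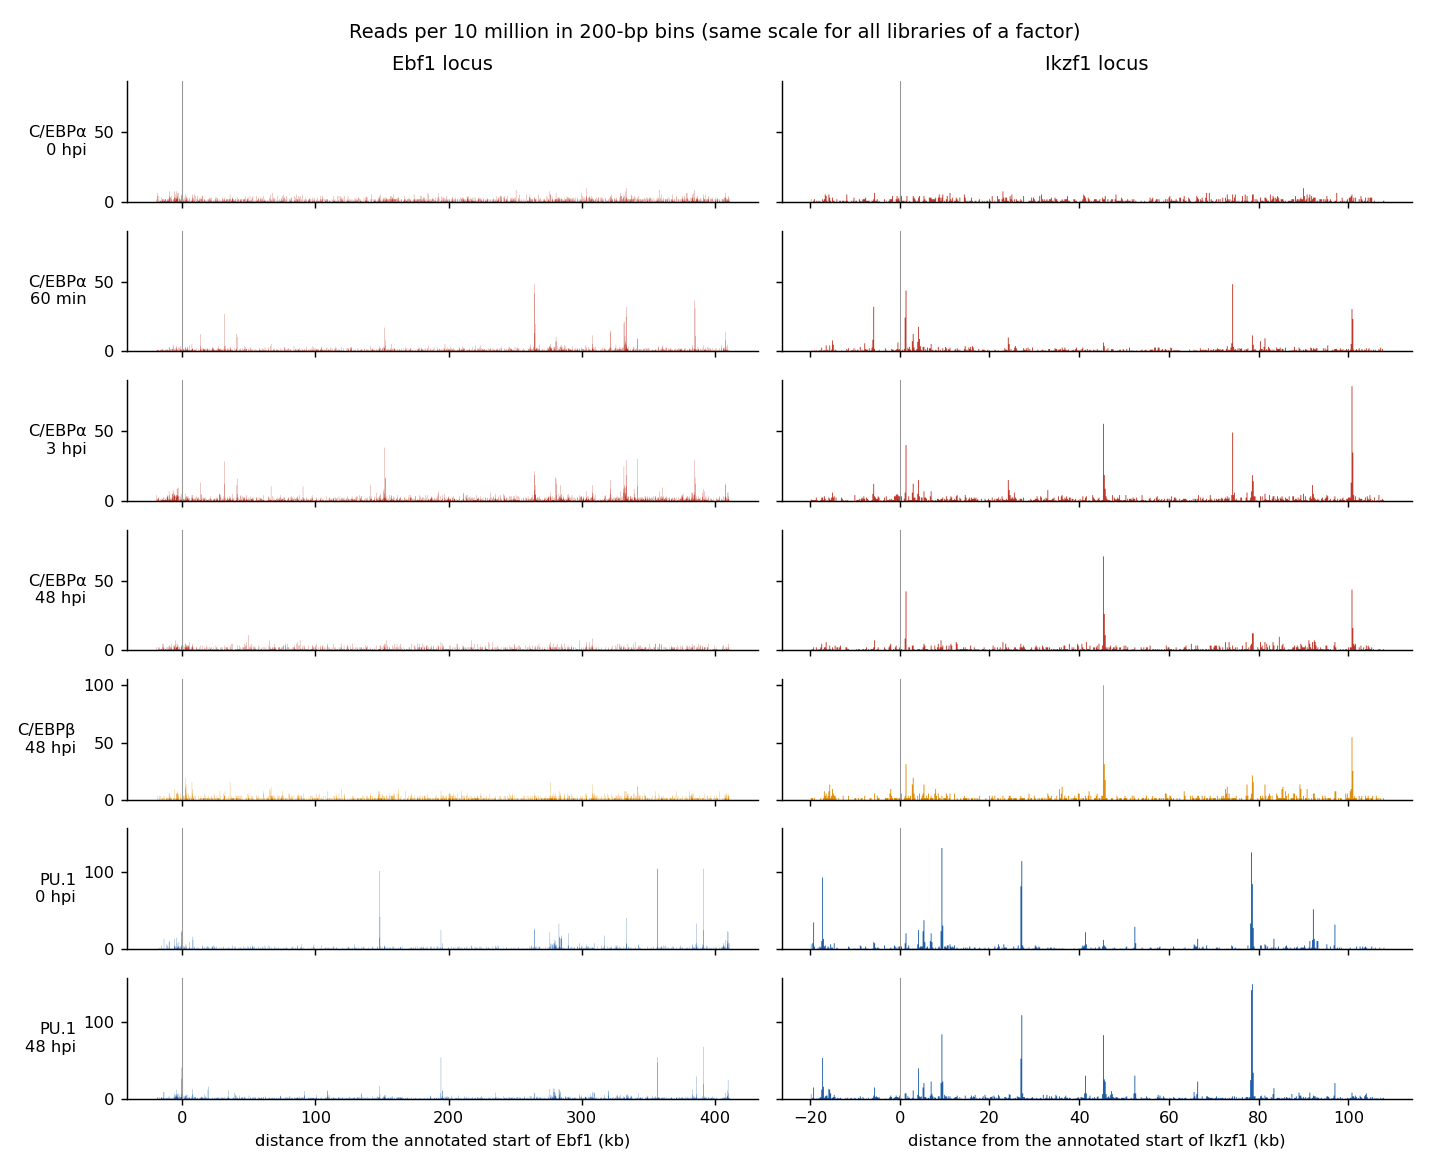
Reads per 10000000 in 200-bp bins (vertical axis, the same scale for all libraries of a factor) along the *Ebf1* and *Ikzf1* loci (horizontal axis, kb from the annotated start, marked by a grey line), in rows for C/EBPα at 0 hpi, 60 min, 3 and 48 hpi, C/EBPβ at 48 hpi, and PU.1 at 0 and 48 hpi. In *Ebf1* the C/EBPα peaks of 60 min and 3 hpi are gone at 48 hpi, whereas *Ikzf1* has peaks at +1.3, +45.3 and +100.7 kb at 48 hpi.

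*Ebf1* (chr11:44430819-44821593, plus strand) encodes the factor that specifies the B lineage. Of its 29 C/EBPα sites, 1 was enriched at 0 hpi, 6 at 10 min, 16 at 30 min, 17 at 60 min, 22 at 3 hpi, 3 at 12 hpi, 2 at 24 hpi and 1 at 48 hpi. In the genome 7.40%, 23.7%, 43.0%, 60.0%, 57.9%, 32.6%, 25.9% and 23.0% of C/EBPα sites were enriched at these times. The strongest, +264.1 kb, had 4.51 normalized C/EBPα reads at 0 hpi, 25.7 at 10 min, 89.2 at 30 min, 86.0 at 60 min, 38.6 at 3 hpi, 5.03 at 12 hpi, 2.64 at 24 hpi and 2.51 at 48 hpi. It peaked before 3 hpi and was back at the level of 0 hpi at 12 hpi. The value at 3 hpi was 8.57 times that at 0 hpi (interval 3.11 to 32.9) and 15.4 times that at 48 hpi (4.0 to 131).

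PU.1 stood at the same place in the pre-B cells and also rose and then fell. It had 49.6 normalized PU.1 reads at 0 hpi, 102 at 3 hpi, 32.7 at 12 hpi, 9.69 at 24 hpi and 13.4 at 48 hpi. C/EBPα was already past its peak at 3 hpi, where PU.1 was highest. PU.1 was not profiled between 0 and 3 hpi, so the peaks cannot be compared in time. PU.1 was lost there by the call, 3.71-fold lower at 48 than at 0 hpi (interval 1.95 to 7.47). At +333.3 kb PU.1 was lost too, with 55.3, 45.6, 26.1, 9.69 and 10.5 reads at 0, 3, 12, 24 and 48 hpi, while C/EBPα there was 14.7 at 0 hpi, between 28.1 and 39.5 from 10 min to 3 hpi, 11.7 at 12 hpi, 5.27 at 24 hpi and 0 at 48 hpi. C/EBPα thus rose at both intronic sites, where PU.1 was present at 0 and 3 hpi, and neither factor remained high. At +333.3 kb the C/EBPα level of 0 hpi, 14.7, was already above the mean of 5.53 over all 101 C/EBPα sites.

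Other transient C/EBPα sites of *Ebf1* also rose and then fell, with lower peaks that often came later. The highest library was most often 3 hpi (14 sites of the locus), then 60 min (6) and 30 min (4). At +384.5 kb the level was 9.02 at 0 hpi, 61.4 at 60 min, 44.0 at 3 hpi and 2.51 at 48 hpi. It was 42.2 at 3 hpi and 1.26 at 48 hpi at +341.5 kb, a ratio of 33.6 (interval 5.74 to 1355), and 42.2 and 3.77 at +151.3 kb, a ratio of 11.2 (3.61 to 56.3). The sole *Ebf1* site gained late was +49.1 kb, a low one, with 2.26 reads at 0 hpi, 1.80 at 3 hpi and 12.6 at 48 hpi.

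PU.1 at *Ebf1* shifted in both directions, as it did in the genome. Of 39 PU.1 sites, 5 were lost and 6 gained from 0 to 48 hpi, where 7.65% and 14.3% of all PU.1 sites were. Without the demand on enrichment, 11 were at least 2-fold lower and 7 at least 2-fold higher, where 12.8% and 18.5% of all PU.1 sites were. The highest, +356.3 kb, where C/EBPα was at most 3.96 in any library, had 180 PU.1 reads at 0 hpi, 167 at 3 hpi, 98.0 at 12 hpi, 81.1 at 24 hpi and 88.9 at 48 hpi, 2.03-fold lower at the end (interval 1.54 to 2.68). A site at +147.9 kb, singled out after its values were seen, had 149, 132, 83.1, 41.4 and 23.9. Gained sites reached lower read levels, though not smaller folds, as at +319.7 kb with 2.84, 7.60, 11.2, 7.93 and 24.8 reads (8.76-fold, 2.19 to 76.2). At +108.5 kb PU.1 was 2.84, 4.56, 15.9, 15.0 and 21.0 (7.41-fold, 1.82 to 65.0). Summed over all PU.1 sites of the locus, PU.1 was -0.48 on the log2 scale at 48 against 0 hpi (interval -0.62 to -0.34).

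*Pax5* (chr4:44544017-44724318, minus strand) encodes the factor that commits cells to the B lineage. Its highest PU.1 site, +40.2 kb, was the strongest PU.1 site at 0 hpi in any of the 9 loci. It had 349 normalized PU.1 reads at 0 hpi, 251 at 3 hpi, 176 at 12 hpi, 131 at 24 hpi and 99.4 at 48 hpi, lower at every step and 3.51-fold lower at the end (interval 2.78 to 4.46). C/EBPα was at most 19.8 there in any library. The site stayed enriched and so does not count as lost.

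The strongest C/EBPα site of *Pax5* kept part of its reads to the end. At +6.0 kb, in an intron, C/EBPα was 7.89 at 0 hpi, 20.5 at 10 min, 41.5 at 30 min, 44.5 at 60 min, 60.2 at 3 hpi, 48.6 at 12 hpi, 44.8 at 24 hpi and 30.2 at 48 hpi. This site was gained by 3 hpi and was still 3.82-fold over 0 hpi at 48 hpi (interval 1.60 to 10.5), after a fall to 0.50 of the level of 3 hpi (0.30 to 0.81). C/EBPβ at +6.0 kb was 25.7, 32.5, 17.2, 28.8 and 63.1, and PU.1 22.7, 48.7, 21.5, 25.6 and 26.8. At 2 other intronic sites C/EBPα was transient and called lost by 48 hpi, +38.4 kb with 5.64 at 0 hpi, 22.5 at 3 hpi and 5.03 at 48 hpi, and +118.0 kb with 13.5, 31.5 and 8.80. Of the 6 C/EBPα sites of the locus, 5 were enriched at 3 hpi and 2 at 48 hpi, beside 57.9% and 23.0% in the genome. C/EBPβ also rose late at +66.0 kb, with 11.7, 5.13, 6.89, 51.2 and 104 reads (8.95-fold, 3.60 to 28.7), a site with the C/EBP letters TTGCGCAA where C/EBPα was at most 17.6. Just upstream of the gene, at −0.6 kb, C/EBPβ was 2.34 at 0 hpi and 21.7 at 48 hpi and C/EBPα 7.89 at 0 hpi, 19.8 at 3 hpi and 12.6 at 48 hpi. PU.1 was gained at 2 sites of *Pax5*, +29.4 kb with 7.09, 6.08, 14.0, 19.4 and 29.6 reads and −8.2 kb with 8.51, 6.08, 6.53, 14.1 and 25.8.

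*Tcf3* (chr10:79872259-79896392, minus strand), which encodes the E-box binding proteins E12 and E47, held the fewest sites. Its highest PU.1 site, −9.5 kb, had 65.2, 38.0, 52.3, 30.0 and 14.3 PU.1 reads at 0, 3, 12, 24 and 48 hpi and was lost (4.55-fold, interval 2.50 to 8.78). PU.1 next to the start of the gene, at −0.5 kb, was low in all libraries, between 5.67 and 14.1. Neither C/EBPα site was gained between 0 and 3 hpi. The one at +25.9 kb was 6.77 at 0 hpi, 17.1 at 3 hpi and 1.26 at 48 hpi, and the one at +33.7 kb never passed 21.8.

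*Foxo1* (chr3:52072259-52154031, plus strand), a forkhead factor needed for *Il7r* and *Rag* expression in B cell precursors, lost most of the reads at its strongest PU.1 site. At +72.4 kb PU.1 was 258 at 0 hpi, 227 at 3 hpi, 110 at 12 hpi, 54.6 at 24 hpi and 33.4 at 48 hpi. The level fell in each interval and was 7.72-fold lower at 48 hpi (interval 5.35 to 11.4), and C/EBPα there was at most 8.38. Downstream of the gene, at +92.8 kb, a site singled out after its values were seen, PU.1 was 111 at 0 hpi, 134 at 3 hpi, 124 at 12 hpi, 82.8 at 24 hpi and 146 at 48 hpi. Its value was the highest of the 8 PU.1 sites of the locus from 12 hpi on, and at 48 hpi it was 1.32 times that at 0 hpi (interval 0.9998 to 1.76). C/EBPα gained 4 of its 7 sites by 3 hpi and lost 5 of the 7 between 3 and 48 hpi, beside 42.7% and 29.0% in the genome. With 7 sites these counts are not read as a difference from the genome. At +63.6 kb it was 10.2 at 0 hpi, 16.5 at 10 min, 38.5 at 30 min, 32.8 at 60 min, 51.2 at 3 hpi, 10.1 at 12 hpi, 3.96 at 24 hpi and 3.77 at 48 hpi. Upstream of the gene, at −3.8 kb, it was 3.38, 15.3, 36.2, 25.6, 28.8, 11.7, 2.64 and 2.51. PU.1 reads around the centre of that C/EBPα site passed through 57.8 at 3 hpi from 29.8 at 0 hpi to 13.4 at 48 hpi. The nearest PU.1 site, further upstream and singled out after its values were seen, ended within counting error of 0 hpi. It had 89.3 PU.1 reads at 0 hpi and 76.4 at 48 hpi, a ratio of 0.856 (interval 0.607 to 1.21). C/EBPβ gained 2 of its 3 sites in the locus, beside 62.5% in the genome, and its highest level in any library was 35.2, at 24 hpi.

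*Ikzf1* (chr11:11585006-11672929, plus strand) encodes Ikaros, a zinc finger factor of lymphoid cells that is also present in myeloid cells. Of its 13 C/EBPα sites, 6 were enriched at 12 hpi, 5 at 24 hpi and 4 at 48 hpi, beside 32.6%, 25.9% and 23.0% of all C/EBPα sites. With so few sites these counts are not read as a difference from the genome. At the same times *Ebf1* had 3, 2 and 1 enriched of 29 sites, and *Foxo1* 0, 1 and 0 of 7. At +100.7 kb, beyond the 3′ end, C/EBPα was 9.02 at 0 hpi, 4.01 at 10 min, 26.2 at 30 min, 54.8 at 60 min, 120 at 3 hpi, 236 at 12 hpi, 177 at 24 hpi and 59.1 at 48 hpi. This was the highest C/EBPα level in any of the 9 loci, and it came at 12 hpi rather than in the first hours. C/EBPβ took a similar course there, with 4.67, 42.8, 65.5, 118 and 78.8, while PU.1 was 0 at 0 hpi and at most 22.4 later.

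At +45.3 kb, in an intron, all 3 factors were higher at 48 hpi. C/EBPα was 3.38 at 0 hpi, 3.21 at 10 min, 8.46 at 30 min, 10.7 at 60 min, 67.4 at 3 hpi, 156 at 12 hpi, 107 at 24 hpi and 91.8 at 48 hpi, 27.1-fold higher at 48 than at 0 hpi (interval 8.92 to 135). C/EBPβ went from 4.67 through 22.2, 27.6 and 106 to 126, 27.0-fold (7.18 to 228), and PU.1 was 22.7, 68.4, 75.6, 59.9 and 110. Near the start, at +1.3 kb in a UTR and beside an annotated transcript start, C/EBPα arrived faster, with 4.51 at 0 hpi, 13.6 at 10 min, 73.8 at 30 min, 66.5 at 60 min, 44.9 at 3 hpi, 62.0 at 12 hpi, 58.0 at 24 hpi and 51.5 at 48 hpi.

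*Ikzf1* had transient sites too. C/EBPα at +74.1 kb was 6.77, 7.23, 52.3, 57.3, 57.5, 30.2, 17.1 and 5.03 from 0 to 48 hpi, 11.4-fold lower at 48 than at 3 hpi (interval 4.26 to 43.3). The site lost after 0 hpi, +89.9 kb, had 15.8 at 0 hpi and 10.1 or less later. PU.1 was strong throughout at +78.3 kb, with 204, 237, 217, 154 and 235, a dip at 24 hpi and a ratio of 48 to 0 hpi of 1.15 (interval 0.933 to 1.42). In contrast, it was lost at +92.1 kb, where it was 73.7, 73.0, 56.0, 30.0 and 5.73 (12.9-fold, 5.53 to 36.6), and at −19.3 kb, where it was 46.8, 51.7, 35.5, 12.3 and 18.2. Over its 21 PU.1 sites the summed level was -0.15 on the log2 scale (interval -0.28 to -0.02).

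*Ikzf3* (chr11:98326216-98407345, minus strand), which encodes the Ikaros relative Aiolos, had the lowest ratio of summed PU.1 reads at 48 over 0 hpi of the 7 loci with at least 5 PU.1 sites. The summed level was -1.09 on the log2 scale (interval -1.40 to -0.78), at percentile 2.23 of the 7278 loci with at least 5 PU.1 sites. The highest site, +48.4 kb, had 79.4, 88.2, 58.8, 43.2 and 27.7 PU.1 reads at 0, 3, 12, 24 and 48 hpi. The site lost, +86.4 kb, beyond the 3′ end, had 29.8, 10.6, 20.5, 5.29 and 2.87 (10.4-fold, interval 3.10 to 54.4). Of the 12 PU.1 sites, 4 were at least 2-fold lower at 48 hpi with the interval of the ratio below 1, and 0 were gained. In the genome 12.8% of PU.1 sites were lower by this rule and 14.3% were gained. C/EBPα at +3.8 kb was a transient site, with 3.38 at 0 hpi, 23.4 at 3 hpi and 1.26 at 48 hpi, and C/EBPβ at +64.4 kb went from 4.67 at 0 hpi to 41.4 at 48 hpi.

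*Bach2* (chr4:32325779-32673083, plus strand) encodes a bZIP repressor of B cells. The strongest transient C/EBPα site of the 9 loci by its level at 3 hpi lay in an intron at +195.9 kb. C/EBPα there was 2.26 at 0 hpi, 8.03 at 10 min, 43.1 at 30 min, 87.5 at 60 min, 165 at 3 hpi, 70.4 at 12 hpi, 10.5 at 24 hpi and 6.29 at 48 hpi. It was 73.3-fold higher at 3 than at 0 hpi, a ratio that rests on 2 reads at 0 hpi, and 26.3-fold lower at 48 than at 3 hpi (11.1 to 82.0). C/EBPβ had the same transient course, with 9.34 at 0 hpi, 94.1 at 3 hpi, 34.5 at 12 hpi, 3.20 at 24 hpi and 3.94 at 48 hpi, and PU.1 was never above 7.60.

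A second site of *Bach2*, +331.3 kb, took the opposite course. C/EBPα was 3.38, 4.01, 1.54, 5.12, 8.09, 10.1, 17.1 and 57.8 from 0 to 48 hpi, C/EBPβ 9.34, 1.71, 10.3, 25.6 and 88.7, and PU.1 1.42, 3.04, 0.933, 15.0 and 46.8. All 3 factors were thus absent or low until 12 hpi and highest at 48 hpi. The interval of the PU.1 ratio, 48 over 0 hpi, was 5.65 to 1330, and that of C/EBPα 5.49 to 85.9. This was the only place in the 9 loci where sites of all 3 factors were gained from 0 to 48 hpi. In total 12 of the 28 *Bach2* C/EBPα sites were lost between 3 and 48 hpi, where 29.0% were lost in the genome.

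PU.1 in *Bach2* was strongest at +119.9 kb, with 343, 300, 203, 145 and 190 reads, 1.80-fold lower at 48 than at 0 hpi (interval 1.49 to 2.19). It was lost at +162.9 kb, where it was 80.8, 36.5, 28.9, 33.5 and 9.56 (8.46-fold, 4.28 to 18.6). It was gained at 4 sites, among them +29.3 kb with 5.67, 12.2, 23.3, 17.6 and 36.3 and +41.7 kb, where the peak of 40.1 was at 12 hpi.

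*Pou2af1* (chr9:51021795-51048184, plus strand) encodes OBF-1, the coactivator of Oct proteins in B cells. PU.1 at −2.7 kb was 149, 151, 94.3, 59.0 and 119, so that it dipped at 24 hpi and ended within counting error of 0 hpi (1.25-fold lower, interval 0.952 to 1.63). None of the 4 PU.1 sites was gained or lost, beside 14.3% and 7.65% in the genome. C/EBPα was transient at −4.5 kb, with 6.77 at 0 hpi, 34.2 at 3 hpi and 2.51 at 48 hpi, but lasted at −18.7 kb, with 5.64, 18.9 and 20.1. C/EBPβ was gained at −18.7 kb, from 2.34 to 31.5, and at +1.7 kb, with 4.67, 18.8, 17.2, 22.4 and 37.4. The sole C/EBPβ site of the 9 loci that was lost, −1.9 kb, went from 23.4 at 0 hpi to 1.97 at 48 hpi.

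*Lef1* (chr3:130813389-130927274, plus strand), an HMG box factor of early B and T cells that acts with β-catenin in Wnt signaling, had a summed PU.1 level at 48 over 0 hpi of 0.33 on the log2 scale (interval -0.02 to 0.68), the only positive value among the 7 loci with at least 5 PU.1 sites. Without its site at +49.9 kb the value was -0.21 (-0.59 to 0.18), so that this site set the direction. PU.1 was gained at +49.9 kb, where it was 7.09, 22.8, 51.3, 32.6 and 64.0 (9.03-fold, 3.68 to 28.7), and lost at −3.5 kb, where it was 32.6, 19.8, 29.9, 12.3 and 8.60, and at −19.7 kb, where it was 28.4, 24.3, 26.1, 21.1 and 12.4. None of the 5 C/EBPα sites was gained or lost, beside 42.7% gained from 0 to 3 hpi and 29.0% lost from 3 to 48 hpi in the genome. At +29.3 kb C/EBPα was 7.89 at 0 hpi, 5.22 at 10 min and between 14.4 and 31.8 from 30 min on. Against 0 hpi it was 3.37-fold higher at 60 min (interval 1.53 to 8.80) and 2.39-fold at 48 hpi (0.917 to 6.93). C/EBPβ there was at most 9.34 up to 24 hpi and 49.3 at 48 hpi (5.27-fold, 1.82 to 20.9). PU.1 at the same place was 5.67, 21.3, 30.8, 18.5 and 24.8.

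**Figure D3:**
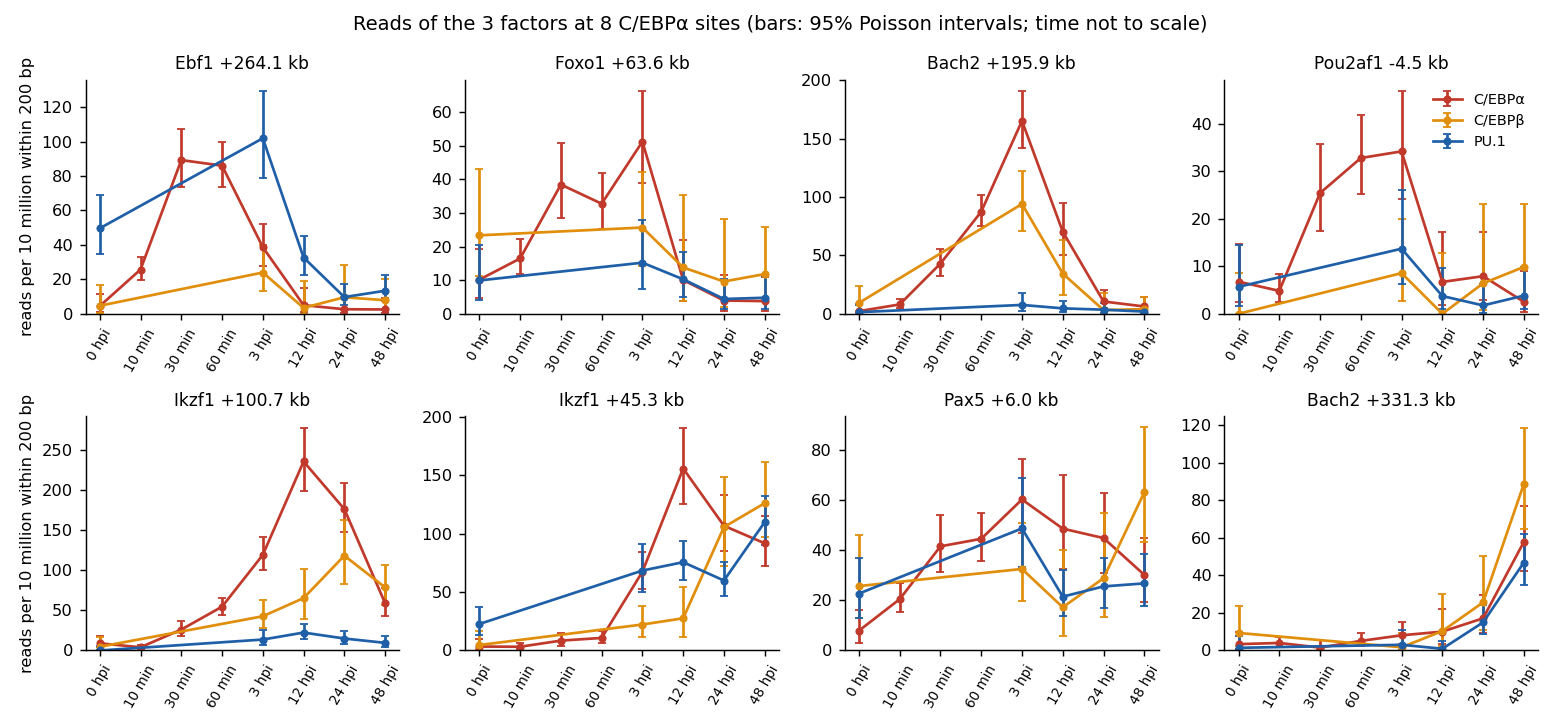
Normalized reads of the 3 factors (vertical axis, with 95% Poisson intervals as bars) at 8 C/EBPα sites against time (horizontal axis, not to scale). The upper row holds transient sites such as *Bach2* +195.9 kb, with 165 C/EBPα reads at 3 hpi and 6.29 at 48 hpi, and the lower row sites bound late, such as *Ikzf1* +45.3 kb with 91.8 and *Bach2* +331.3 kb with 57.8 at 48 hpi.

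PU.1 was on balance lower in the 9 loci at the end of the course. Of its 143 sites, 72 were enriched at 0 hpi, 87 at 3 hpi, 120 at 12 hpi, 89 at 24 hpi and 76 at 48 hpi (50.3%, 60.8%, 83.9%, 62.2% and 53.1%, against 43.3%, 48.0%, 77.6%, 59.4% and 55.9% in the genome). Reads summed over the 143 sites were 5912 normalized reads at 0 hpi, 5945 at 3 hpi, 5656 at 12 hpi, 3986 at 24 hpi and 4315 at 48 hpi. On the log2 scale the sum was 0.01, -0.06, -0.57 and -0.45 at 3, 12, 24 and 48 hpi relative to 0 hpi, with an interval of -0.52 to -0.39 at 48 hpi. Over all PU.1 sites of the genome the same values were 0.18, 0.38, -0.06 and 0.05. At the 10 other regulators they were 0.29, 0.14, -0.35 and -0.17, lower than in the genome at 24 and 48 hpi and higher than in the 9 loci.

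The median change of a PU.1 site from 0 to 48 hpi was -0.31 on the log2 scale in the 9 loci and 0.11 in the genome, and 58 of 143 sites were higher at 48 hpi (40.6%, against 54.1%). At least 2-fold lower, with the interval of the ratio below 1, were 30 of 143 sites (21.0%, interval 14.6 to 28.6%), where 12.8% of all PU.1 sites were, and at least 2-fold higher were 16 (11.2%, 6.53 to 17.5%), where 18.5% were. The 30 lower sites were 11 in *Ebf1*, 7 in *Bach2*, 4 in *Ikzf3*, 2 each in *Pax5*, *Ikzf1* and *Lef1*, and 1 each in *Tcf3* and *Foxo1*. With the added demand on enrichment, 14 sites were lost (9.79%, 5.46 to 15.9%), beside 7.65% in the genome, and 13 were gained (9.09%, 4.93 to 15.0%), beside 14.3%. With a 3-fold limit 9 sites were lost. The share lost was thus near that of the genome, and the shift showed more in the sites that were lower without being lost. At the 10 other regulators 9 of 153 sites were lost (5.88%) and 19 gained (12.4%).

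Per locus, the summed PU.1 level at 48 over 0 hpi was -0.48 in *Ebf1*, -0.69 in *Pax5*, -0.15 in *Ikzf1*, -1.09 in *Ikzf3*, -0.72 in *Foxo1*, -0.50 in *Bach2* and 0.33 in *Lef1*. The median over the 7278 loci with at least 5 PU.1 sites was 0.15, with quartiles of -0.23 and 0.59. *Pax5*, *Ikzf3*, *Foxo1*, *Ebf1* and *Bach2* thus lay below the lower quartile, at percentiles 7.06, 2.23, 6.55, 13.8 and 13.2. Such low ranks were not particular to the 9 loci. Of the other regulators, *Pou2f2*, *Erg*, *Id3*, *Tcf12* and *Bcl11a* lay below it too, at percentiles 1.47, 12.0, 19.1, 23.4 and 24.3. *Ets1*, *Mef2c*, *Foxp1* and *Bcl6* lay above it, and *Sox4* was not ranked. *Tcf3* and *Pou2af1* had 4 PU.1 sites each and were not ranked.

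In some loci a single site carried the change. Without its highest PU.1 site, a choice made after the values were seen, *Foxo1* was at 0.14 (interval -0.14 to 0.42), *Pax5* at -0.11 (-0.34 to 0.13) and *Lef1* at -0.21 (-0.59 to 0.18). The lower sums of *Foxo1* and *Pax5* thus rested on +72.4 kb and +40.2 kb, and the higher one of *Lef1* on +49.9 kb. In *Pax5* PU.1 also fell at +173.4 kb (63.8 to 24.8) and −16.2 kb (76.6 to 43.0), sites singled out after their values were seen. It was gained at +29.4 kb and −8.2 kb. *Ebf1*, *Ikzf1*, *Ikzf3* and *Bach2* stayed lower without their highest site, at -0.40, -0.24, -0.96 and -0.42, with intervals below 0. *Tcf3* was at -0.86 with its −9.5-kb site and at 0.43 (-0.40 to 1.31) without it. Over the 134 sites that remained in the 9 loci the value was -0.31 (interval -0.38 to -0.24). The median over the sites of a locus was -0.82 in *Ikzf3*, -0.57 in *Bach2*, -0.13 in *Ebf1* and *Foxo1*, and between -0.28 and 0.22 in the other 5.

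**Figure D4:**
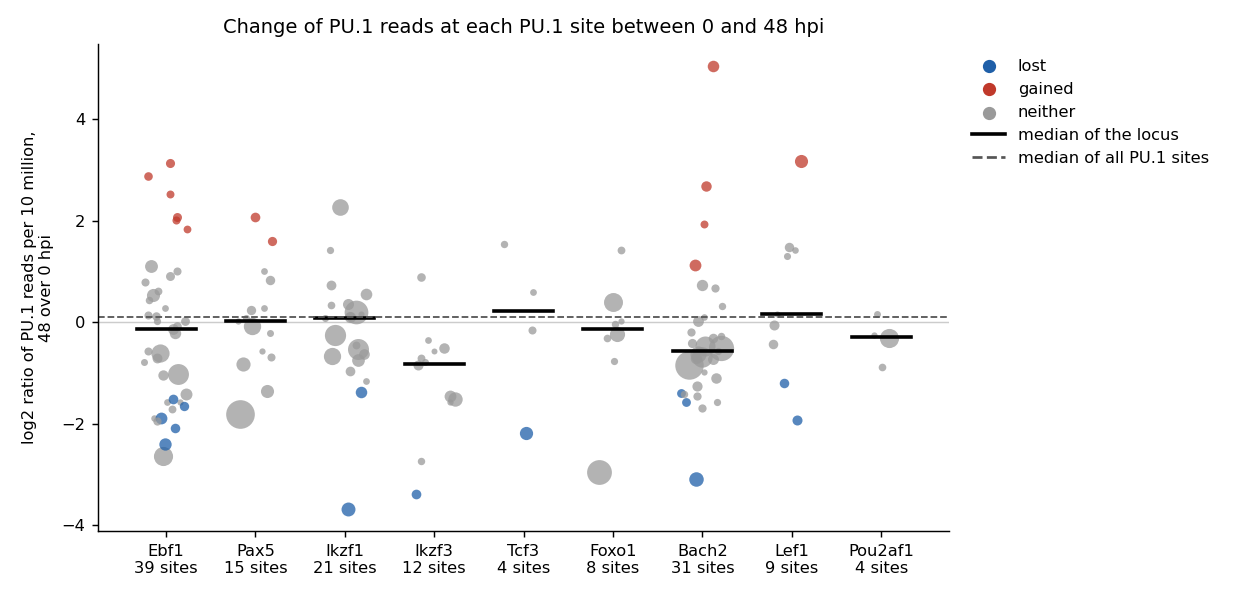
Log2 ratio of PU.1 reads at 48 over 0 hpi (vertical axis) at each PU.1 site of the 9 loci (points, with an area that grows with the higher of the levels at 0 and 48 hpi, red for gained and blue for lost), with the median of each locus as a black bar and that of all PU.1 sites (0.11) as a dashed line. Large points lie low in *Pax5* and *Foxo1*, whose medians are near 0, while the medians of *Ikzf3* (-0.82) and *Bach2* (-0.57) lie below it.

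Strong PU.1 sites of the pre-B cells were lower at 48 hpi here, and in the genome as well. Of the 17 sites with at least 100 normalized PU.1 reads at 0 hpi, 15 were lower at 48 hpi, with a median of -0.62 on the log2 scale. Of the 3213 such sites in the genome 82.0% were lower, with a median of -0.56, so that the strong sites of 0 hpi did not set the 9 loci apart. Sites chosen for a high value in a library tend to be lower in any other, so these counts are a description. Of the 11 sites with at least 100 reads at 48 hpi, chosen at the other end, 8 were lower at 48 than at 0 hpi (72.7%, median -0.32). Of the 3132 such sites in the genome 40.1% were (median 0.21). With 11 sites this is not read as a difference from the genome. At the 10 other regulators 8 of 14 such sites were lower (57.1%, median -0.13).

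**Figure D5:**
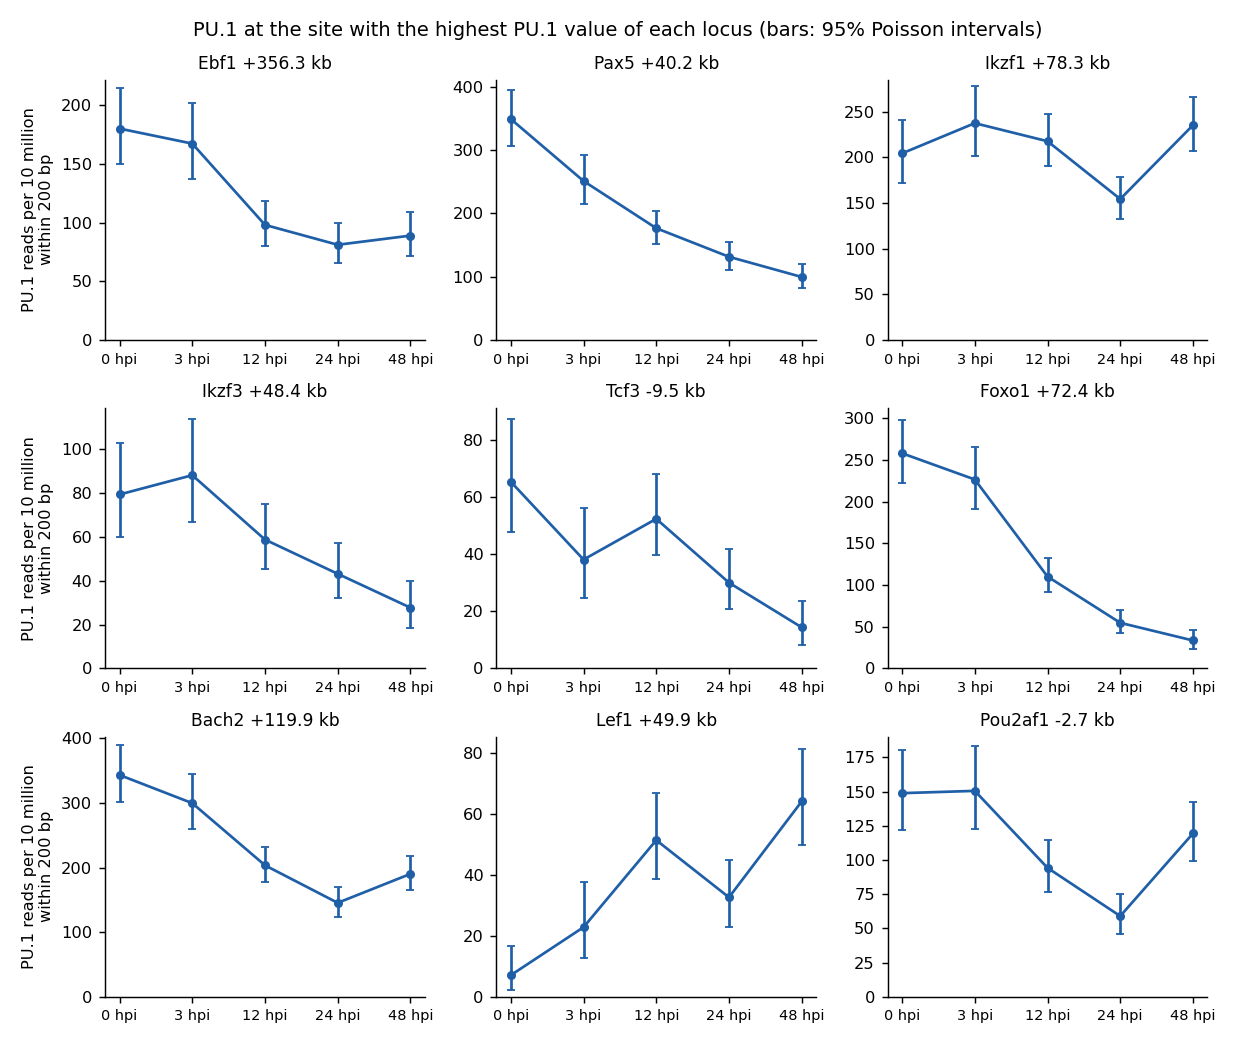
Normalized PU.1 reads (vertical axis, from 0, with 95% Poisson intervals as bars) at the site with the highest PU.1 level of each locus, at 0, 3, 12, 24 and 48 hpi (horizontal axis, not to scale). *Foxo1* +72.4 kb goes from 258 to 33.4 and *Pax5* +40.2 kb from 349 to 99.4, whereas *Ikzf1* +78.3 kb starts at 204 and ends at 235 and *Lef1* +49.9 kb climbs from 7.09 to 64.0.

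C/EBPβ had fewer sites in these loci than C/EBPα, and most were enriched at 48 hpi, though a smaller share than in the genome. Of its 36 sites, 2 were enriched at 0 hpi, 13 at 3 hpi, 4 at 12 hpi, 10 at 24 hpi and 25 at 48 hpi. Depth limits these calls too. A bin needed at least 6 of 2901164 reads at 12 hpi, the smallest library, and 8 of 5073864 reads at 48 hpi. Weaker sites could thus be called at 48 hpi than at 12 hpi. As shares the counts were 5.56%, 36.1%, 11.1%, 27.8% and 69.4%, against 6.70%, 37.2%, 21.9%, 42.8% and 79.0% of all C/EBPβ sites. The highest library was 48 hpi for 52.8% of the sites, against 66.8% in the genome, and 3 hpi for 22.2%, against 14.6%. Gained from 0 to 48 hpi were 17 (47.2%, interval 30.4 to 64.5%), where 62.5% of all C/EBPβ sites were gained, and 1 was lost, beside 0.765%. The 10 other regulators gained 31 of 53 (58.5%). Gains occurred in every locus but *Tcf3*, with 4 in *Ikzf1*, 3 in *Pax5*, 2 each in *Ebf1*, *Foxo1*, *Bach2* and *Pou2af1*, and 1 each in *Ikzf3* and *Lef1*. Summed over its sites, C/EBPβ was 0.93, 0.65, 1.16 and 1.83 on the log2 scale at 3, 12, 24 and 48 hpi relative to 0 hpi, and 1.20, 1.24, 1.90 and 2.46 over all C/EBPβ sites of the genome. For C/EBPα the sums were 0.08, 1.43, 1.63, 1.98, 1.44, 0.91 and 0.56 from 10 min to 48 hpi, against 0.34, 1.79, 1.89, 2.04, 1.73, 1.30 and 1.08 in the genome. Both factors thus ended lower in these loci than at their sites at large, while at 3 hpi C/EBPα was near the genome value.

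The share of C/EBPα sites that lay near PU.1 of the pre-B cells was close to that of the genome, and the share near C/EBPβ was lower. Of the 101 C/EBPα sites, 29 had PU.1 enriched at 0 hpi within 1000 bp (28.7%, interval 20.1 to 38.6%, against 29.5% in the genome) and 25 had PU.1 at 48 hpi (24.8%, 16.7 to 34.3%, against 37.3%). C/EBPβ was within 1000 bp at any time for 25 (24.8%, 16.7 to 34.3%), against 38.7%. Seen from PU.1, 8 of the 14 sites lost had a C/EBPα site within 1000 bp (57.1%, interval 28.9 to 82.3%), against 21.5% of the lost PU.1 sites of the genome. Of all 143 PU.1 sites of the loci 35.0% had one, which lies within that interval, against 28.1% in the genome. For PU.1 sites enriched at both 0 and 48 hpi the shares were 39.2% (20 of 51) and 38.1%, and for gained sites 23.1% (3 of 13) and 30.6%. The 9 loci are richer in C/EBPα sites than most, and the part of that in these shares was not tested.

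The searched motifs are given as the share of sites that held them, beside the share of all sites of the factor. Up to 75 bp from the middle of the site, 22.8% of the C/EBPα sites held the C/EBP letters, against 25.1% in the genome, and 22.2% against 32.1% of C/EBPβ sites did. The PU.1 letters lay at 39.2% of PU.1 sites, against 43.4%. RUNX matches occurred at 11.9% of C/EBPα sites, against 17.4%. The E-box lay at 11.9% of C/EBPα sites, against 12.6%, and at 11.2% of PU.1 sites, against 9.18%. EBF1 letters were at 1.98% of C/EBPα sites (interval 0.241 to 6.97%) against 6.31%, at 2.78% of C/EBPβ sites (0.0703 to 14.5%) against 3.63%, and at 0.699% of PU.1 sites (0.0177 to 3.83%) against 3.41%. These are 2, 1 and 1 sites, and the 3 intervals hold the genome shares. Within 150 bp the EBF1 shares were 4.95% against 10.6% for C/EBPα, 8.33% against 6.68% for C/EBPβ and 4.90% against 6.23% for PU.1. Of the sequences printed above, *Foxo1* +72.4 kb held none of the letters searched, which says only that they are not in this window.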

How the data were processed

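The data were 18 ChIP-seq libraries of C10 cells, made with antibodies to C/EBPα (8 libraries), C/EBPβ (5) and PU.1 (5), each of another time point. Alignment by the authors was with ELAND or Bowtie against mm9 (versions not given in the sources used here), and they discarded identical reads and those without a unique place. What the authors deposited is, for every read that remained, its coordinates and strand, without normalization or an input control. The deposited positions were taken here as raw read counts. Groups were taken from the factor and time in the labels. Expression, histone marks and Ebf1 binding were not analysed here.

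The 5′ end of each read was moved 75 bp inward, and 1 read per position and strand was kept. This removed 2.51% of reads in the C/EBPα library of 3 hpi and at most 0.187% in the others. Left out were reads on unplaced contigs and 1 line without a position in the PU.1 library of 0 hpi. A bin of 200 bp was enriched when its reads had a Poisson tail of at most 1e-06 under the library's mean over 2000000000 bp, were at least 4 times the density of the surrounding 10 kb, and had a local Poisson tail of at most 0.0001. This took at least 6 to 14 reads, depending on depth. Enriched bins of a factor with at most 1 bin between them were merged. Values are reads within 200 bp of the centre per 10000000 reads used (2901164 to 24909437). Counts have exact Poisson intervals, and shares and ratios exact Clopper-Pearson intervals (95%), for counting error only. A count of 0 entered a fold as 3 counts. Calling was tested on simulated data with known sites. Background shares are over all sites of a factor in the genome. No test between libraries was made.

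The genes were taken from GENCODE vM1, whose build matches the files, and sequences from the mm9 (NCBIM37) genome. Sites named are, per locus and factor, the highest, the one nearest an annotated start of the gene, and up to 3 gained and 3 lost with the largest ratio per comparison. The genes, lists and motifs were chosen with earlier results of these data known. Alternatives were a threshold of 1e-9, 2-fold over the surroundings, thinned libraries, a grid moved by 100 bp, a shift of 50 bp, all reads as deposited, reads within 100 bp, another scaling, a 3-fold limit and a distance of 200 bp. Python 3.11.15, NumPy 2.4.6, SciPy 1.17.1 and Matplotlib 3.10.9 were used.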

Additional observations from a re-analysis of the deposited data

How the results depend on the processing

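No paired analysis was possible because each factor and time point had 1 library. Under the settings named in the methods that recompute it, the summed PU.1 level at 48 over 0 hpi stayed between -0.48 and -0.41 on the log2 scale (-0.45 as reported), and it was -0.31 without the highest PU.1 site of each locus, an alternative chosen after seeing the data. That alternative turned the direction in *Foxo1* (0.14), *Tcf3* (0.43) and *Lef1* (-0.21), whose sums rest on that site, and left *Pax5* at -0.11. Over those settings the share of C/EBPα sites with PU.1 at 0 hpi lay between 20.8% (PU.1 within 200 bp) and 32.4% (thinned libraries). Counts that moved by more than 1.5 times were few. A Poisson threshold of 1e-9 left 22 C/EBPβ sites of 36. Thinning left 36 C/EBPα sites gained between 0 and 3 hpi of 55. A 3-fold limit left 9 PU.1 sites lost of 14, and 30 were at least 2-fold lower when enrichment was not required, an alternative chosen after seeing the data. The single C/EBPα site lost from 0 to 48 hpi was 0 sites with the threshold of 1e-9, with thinning, with the grid moved by 100 bp and with reads within 100 bp, and 2 sites without the demand on enrichment. The single C/EBPβ site lost was 0 at 1e-9 and 2 with a shift of 50 bp. The order of these single-site shares against the genome turned in some settings, so none is read from them. The cause of these changes was not tested. Over the alternatives C/EBPα lost between 43.7% and 50.7% of its sites from 3 to 48 hpi, against 26.3% to 34.4% in the genome, while PU.1 lost 6.29% to 12.2%, against 5.85% to 7.98%. Of 168 ratios at named sites, 166 stayed within their intervals with reads within 100 bp, the exceptions being *Ebf1* +321.5 kb and *Pax5* +38.4 kb, and all 168 with other scaling or all reads. Within 150 bp, 9 of 15 motif shares moved, among them EBF1 letters at PU.1 sites (4.90%). Depth limits low sites: thinning left 68 of 101 C/EBPα sites, 27 of 36 C/EBPβ sites and 133 of 143 PU.1 sites.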
